A study of Mus musculus with 2 samples.

Results

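The LIF receptor and STAT3 pathway was followed through 10 genes, chosen for their roles in the pathway with earlier results of these data known. They were the receptor chains Lifr, Il6st, Osmr and Il6ra, the kinases Jak1 and Jak2, and the transcription factor Stat3. The others were its feedback inhibitor Socs3 and the kinases Pim1 and Pim3. All 10 were among the 13620 genes listed in the deposited table, and all 10 reached 1 CPM in at least 1 library, as did 13512 genes in all. Polyadenylated RNA was sequenced from mouse embryonic stem (ES) cells labelled C57BL/6J, with 1 library of genotype Fbxl10 T/T and 1 of genotype WT. Both cultures were kept in fetal bovine serum with LIF from medium conditioned by LIF-secreting cells, on feeder fibroblasts inactivated with mitomycin C that were depleted by attachment before use. Fbxl10 is an older symbol of Kdm2b, whose protein binds unmethylated CpG islands and belongs to a variant Polycomb complex; the labels do not say what the T allele alters, whether the lines are single clones, or how many passages they had. With 1 library per genotype no difference between genotypes could be tested, so "higher" and "lower" describe these 2 libraries.

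LIF (leukemia inhibitory factor) is the cytokine that keeps mouse ES cells self-renewing in serum. It binds the receptor chain encoded by Lifr, which pairs with gp130, the shared signalling chain encoded by Il6st. JAK kinases bound to these chains phosphorylate docking tyrosines and then STAT3, which enters the nucleus and activates genes that include its own inhibitor Socs3. SOCS3 binds gp130 and JAK and shuts the signal down, and PIM kinases are products of other STAT3 target genes. The same chains serve related cytokines: OSMR pairs with gp130 for oncostatin M, IL6RA brings IL-6 to gp130, and CNTFR brings ciliary neurotrophic factor to LIFR and gp130.

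Values are normalised CPM, gene read counts scaled by an effective library size that the authors set; the T/T library held 27109446 reads in listed genes and the WT library 21198574. Kdm2b was at 10.6 CPM in T/T and 102.5 CPM in WT. Of 9 ES cell markers, 7 were at least 2-fold lower in T/T and none higher, with summed levels of 1401 CPM in T/T and 6371 CPM in WT. All 12 extraembryonic endoderm markers were at least 2-fold higher, with sums of 74852 CPM in T/T and 8473 CPM in WT. Of 15 fibroblast markers, which would report remaining feeder cells, none was 2-fold higher and 3 were lower, with sums of 795 CPM in T/T and 1240 CPM in WT. No marker measured was at 0 in either library. ES cell markers were thus detected in both libraries. The endoderm markers summed to more than the ES cell markers in both, by a wider margin in T/T. Sums of different genes do not give shares of cells. Abundant genes weigh heavily in them, such as Col4a1 at 18445 CPM in T/T and 1862 CPM in WT. The part of these cell types in the results below was not tested, and in bulk RNA fewer cells of a type and less RNA per cell cannot be told apart.

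All 10 genes had an entry among the RefSeq promoter windows (GRCm38.p6), 12 windows in total because Lifr and Pim1 each had 2. Read over the 200 bases from 250 to 51 before each start, Lifr had one window dense in CpG, the dinucleotide that the CXXC domain of KDM2B binds when unmethylated, and one poor in it. They are shown because Lifr had the largest ratio of the 10 genes, beside the CpG-dense window of Pim1, which had the lowest ratio among Stat3, Socs3 and the PIM genes followed here; capitals mark CpG.
Lifr first window, chr15:7129322-7129521, plus strand: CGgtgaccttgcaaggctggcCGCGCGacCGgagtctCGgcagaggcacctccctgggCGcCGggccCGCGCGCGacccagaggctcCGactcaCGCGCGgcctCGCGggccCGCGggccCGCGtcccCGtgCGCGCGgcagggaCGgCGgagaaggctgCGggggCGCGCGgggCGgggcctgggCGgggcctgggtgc
Lifr second window, chr15:7140292-7140491, plus strand: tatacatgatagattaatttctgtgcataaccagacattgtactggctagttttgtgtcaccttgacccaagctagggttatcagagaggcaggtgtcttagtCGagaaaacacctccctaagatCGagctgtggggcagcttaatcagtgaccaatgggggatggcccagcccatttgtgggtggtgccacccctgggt
Pim1 first window, chr17:29490535-29490734, plus strand: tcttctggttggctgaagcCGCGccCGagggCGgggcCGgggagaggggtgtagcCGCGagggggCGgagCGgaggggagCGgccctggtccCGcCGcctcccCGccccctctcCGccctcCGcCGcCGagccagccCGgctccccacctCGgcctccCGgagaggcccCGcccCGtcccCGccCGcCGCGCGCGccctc
The first Lifr window held 34 CpG, a count reached by 0.813% of all 32851 windows, and the second held 2, below the median of 4. The first Pim1 window held 28 CpG, reached by 3.03% of windows, and the second held 4. Jak2 also had 34 CpG, Il6st 22, Pim3 21, Socs3 18, Osmr and Il6ra 13, and Jak1 and Stat3 10. Among members past 2-fold, the densest windows of the higher Lifr and Jak2 thus held 34 CpG each. Those of the lower Pim1, Pim3 and Il6ra held 28, 21 and 13. A relation between CpG count and direction was not tested. No binding or methylation data were used here, and the RNA values do not separate the 2 Lifr windows. Both Lifr windows lie inside the gene as GENCODE M21 annotates it and overlap none of its exons. That gene runs from 7090614 to 7197489 in GRCm38, a longer span than the locus listed with the RNA values, 7104360 to 7141218 in mm9. The builds differ and positions were not converted. Whether either window is a promoter of the Lifr model that gave the RNA values was not tested. The first transcribed bases after the first Lifr start were found in the gene's GENCODE M21 transcripts, and those after the second Lifr start were not. Those after the Jak2 and Socs3 starts were not found in the transcripts of their genes either, while those of all remaining windows were.

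The STAT binding motif TTCNNNGAA, which reads the same on both strands, was found in 1 of the 12 windows, that of Socs3, and in 5.76% of all windows. The match begins 154 bases before the RefSeq start and is shown with its flanks because Socs3 is the textbook STAT3 feedback gene; capitals mark the motif.
Socs3, chr11:117969502-117969530, minus strand: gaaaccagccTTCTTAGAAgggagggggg
The whole Socs3 window lies inside the gene as GENCODE M21 annotates it and overlaps 1 of its exons; the stretch printed overlaps none. As said above, the bases after this RefSeq start were not found in the GENCODE M21 transcripts of Socs3. The narrower motif TTCCNGGAA, a subset of the first, was in none of the 12 windows and in 0.697% of all windows. Only these letters in these windows were searched, so a missing match says nothing about STAT3 binding.

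The 10 genes did not move one way, and the 4 receptor chains differed widely among themselves, with log2 ratios of 2.69 for Lifr, 0.76 for Il6st, 0.02 for Osmr and -2.03 for Il6ra. On the log2(CPM + 0.5) scale, Lifr and Jak2, 2 of the 10, were past 2-fold on the higher side, where 14.8% of the 13512 tested genes were. At least 2-fold lower were 3 genes, Pim1, Pim3 and Il6ra, where 20.6% of tested genes were, and the other 5, Il6st, Osmr, Jak1, Stat3 and Socs3, did not reach 2-fold. With 10 genes these counts are close to the background and do not set the pathway apart. An exact binomial test on the reads with Benjamini-Hochberg adjustment, which compares the 2 libraries and not the genotypes, called 6 members higher and 3 lower, beside 42.5% and 41.0% of all listed genes, and left Osmr uncalled. The median log2 ratio of the 10 was 0.65 and that of all tested genes 0.02; 7 of the 10 lay above 0, as did 50.9% of tested genes. Rescaling the libraries to the sum of their listed genes moved the median of all genes by -0.31, and the whole-table split of 1994 higher and 2781 lower became 1331 and 3494. The members' counts remained 2 higher and 3 lower under that rescaling.

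**Figure D1:**
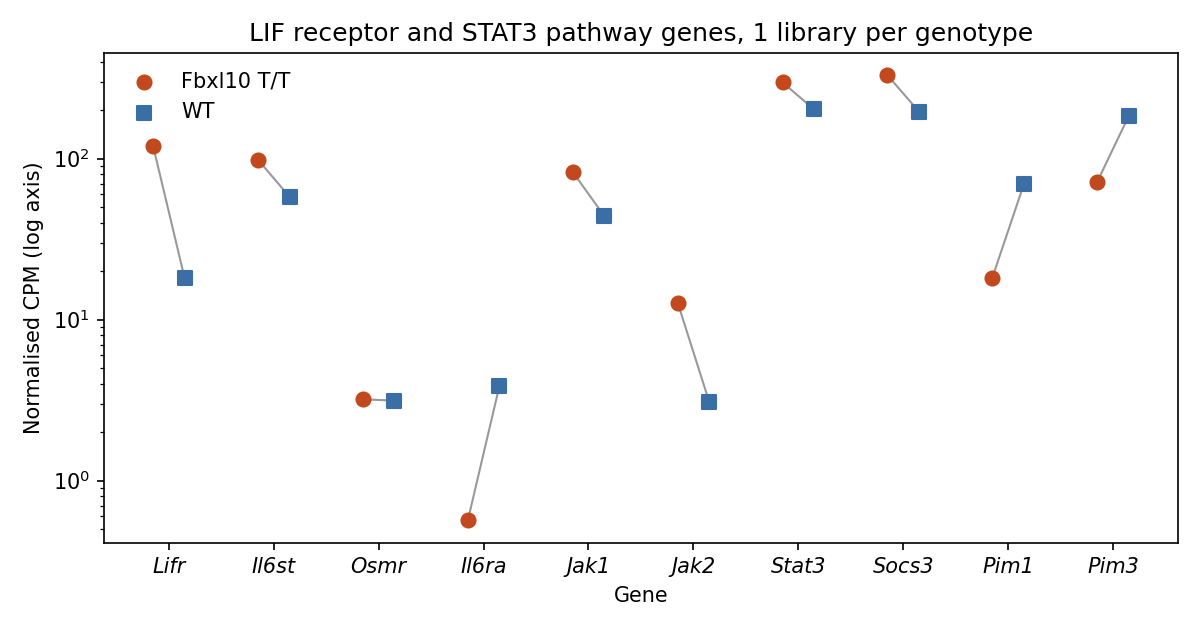
Normalised CPM (log axis) of the 10 pathway genes, with a circle for the Fbxl10 T/T library and a square for the WT library, 1 library per genotype. Lifr and Jak2 stand well above WT in T/T, Osmr is level at 3.20 CPM in T/T and 3.14 CPM in WT, and Il6ra, Pim1 and Pim3 lie below WT.

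Lifr, the gene of the LIF-binding receptor chain, was at 119.3 CPM in T/T (2946 reads) and 18.1 CPM in WT (432 reads). It was 6.60-fold higher, with an exact binomial (Clopper-Pearson) 95% counting interval of 5.96 to 7.31; such intervals cover counting error only. Its log2 ratio of 2.69 was exceeded by 209 of the 13512 tested genes. Il6st, the gene of gp130, was at 98.4 CPM in T/T and 57.9 CPM in WT, 1.70-fold higher (interval 1.59 to 1.82). Lifr thus moved more than its partner: the T/T over WT ratio of Lifr was 3.88 times that of Il6st (95% counting interval 3.44 to 4.38), a comparison that no library scaling can change. Per kilobase of merged GENCODE M21 exons, Lifr was 1.25 times the level of Il6st in T/T and 0.322 times in WT, so the order of the LIF receptor's 2 chains was opposite in the 2 libraries. Lifr lies on chromosome 15 from 7104360 to 7141218 in mm9 (ENSMUSG00000054263). The GENCODE M21 gene spans a longer stretch, from 7090614 to 7197489 in GRCm38. The exon length behind the levels of Lifr per kilobase may therefore not match the exons counted. Its order against Il6st within a library depends on that length, while the T/T over WT ratios do not. The deposited value joins all its transcripts, so the membrane and soluble forms of the receptor known in mouse are not separated.

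Osmr, which encodes the oncostatin M receptor chain, was at 3.20 CPM in T/T (79 reads) and 3.14 CPM in WT (75 reads), a ratio of 1.02 with an interval of 0.733 to 1.42. That interval includes 1, so the levels of Osmr in the 2 libraries could not be told apart at this depth. In contrast to it stood Lifr, whose ratio was 6.47 times that of Osmr (interval 4.65 to 9.02). Il6ra, the gene of the IL-6-binding chain, was at 0.567 CPM in T/T (14 reads) and 3.85 CPM in WT (92 reads), 6.79-fold lower with a wide interval of 3.85 to 12.9. Il6ra overlaps the antisense gene Gm42809 by 242 exonic bases in GENCODE M21, which further limits its few reads. Osmr and Il6ra were rare in both libraries, so among the 4 receptor members only Lifr and Il6st had more than 100 reads in each.

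Of 4 other chains that pair with gp130 or OSMR, 3 were listed and Il31ra was not. None of the 3 was at least 2-fold higher and 2 were lower, beside 14.8% higher and 20.6% lower among all tested genes. Cntfr, the binding chain for ciliary neurotrophic factor, was at 2.92 CPM in T/T (72 reads) and 47.6 CPM in WT (1137 reads), 16.3-fold lower (interval 12.9 to 21.0). Il27ra was at 0.122 CPM in T/T (3 reads) and 1.59 CPM in WT (38 reads), a ratio of 13.1 in favour of WT with an interval of 4.15 to 66.3. Il11ra1 was at 7.33 CPM in T/T and 7.03 CPM in WT, with a direction that turned on rescaling. Of the summed level per kilobase of these 7 chains, Lifr made up 48.2% in T/T and 6.28% in WT. Cntfr made up 4.56% in T/T and 64.0% in WT, and Il6st 38.5% in T/T and 19.5% in WT. With these exon lengths, the most abundant chain was thus Cntfr in WT and Lifr in T/T. The length used for Lifr may not match the exons counted, as said above, and the shares depend on it. Lifr stood below Il6st in WT, and Cntfr stood below Il6st and Il11ra1 in T/T.

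**Figure D2:**
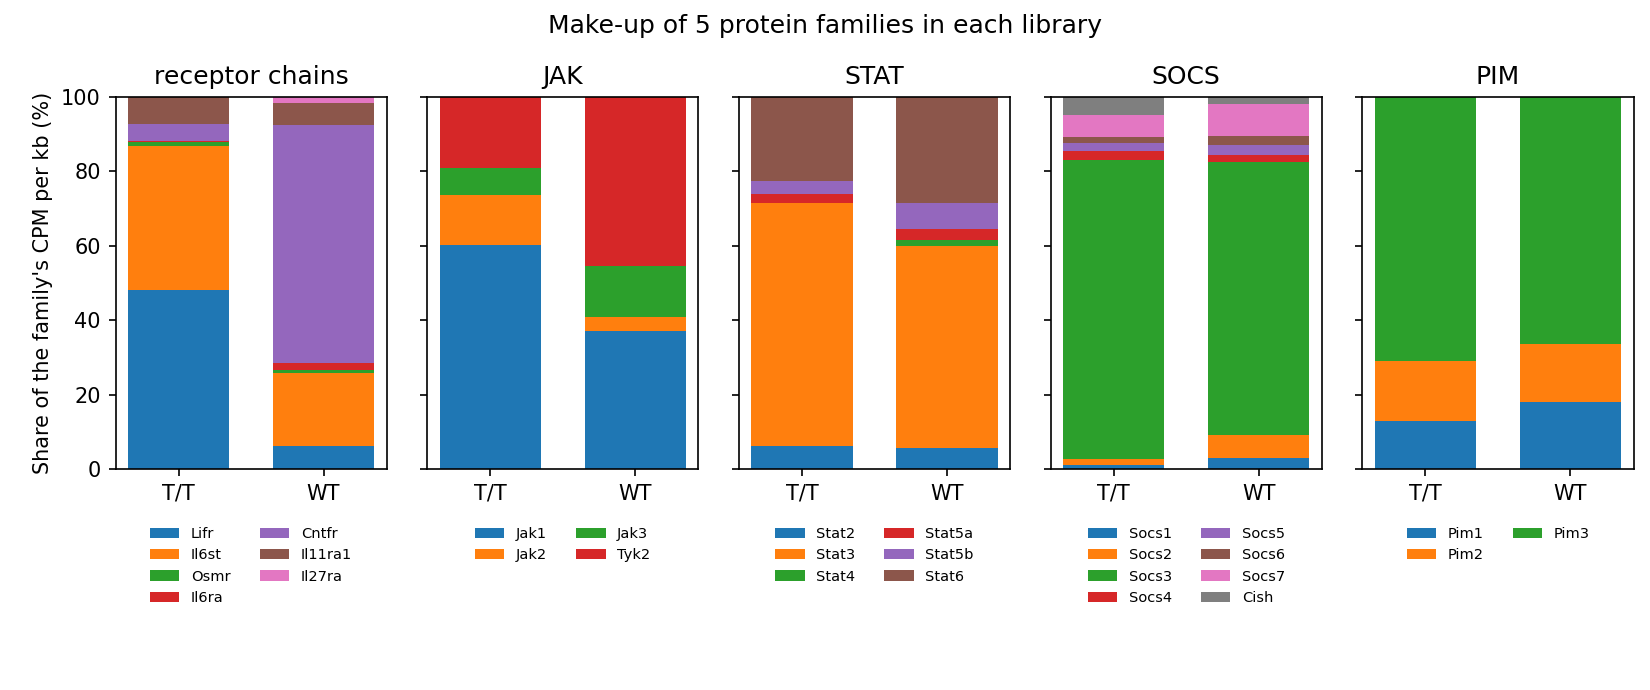
Share of the summed CPM per kilobase (%) that each gene contributes within 5 families, with the T/T library left of WT in each panel. The receptor panel shows Lifr at 48.2% in T/T and 6.28% in WT and Cntfr at 4.56% in T/T and 64.0% in WT, while Socs3 and Pim3 hold most of their families in both libraries.

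The kinase genes were both higher in T/T. Jak1, which encodes the main kinase on gp130, was at 82.6 CPM in T/T (2038 reads) and 44.1 CPM in WT (1052 reads), 1.87-fold higher (interval 1.74 to 2.02). Jak2 was at 12.8 CPM in T/T (315 reads) and 3.10 CPM in WT (74 reads), 4.12-fold higher (interval 3.19 to 5.38). The ratio of Jak2 was 2.20 times that of Jak1 (interval 1.69 to 2.86), yet per kilobase Jak1 still stood 4.50 times above Jak2 in T/T, and 9.89 times in WT. Of 7 other JAK and STAT genes none was 2-fold higher and 2 were lower, Tyk2 and Stat4, beside 14.8% higher and 20.6% lower among all tested genes; the median log2 ratio was -0.65. Tyk2, the JAK family gene best known from interferon signalling, went against them, at 24.8 CPM in T/T and 51.5 CPM in WT (2.08-fold lower, interval 1.88 to 2.29). Within the 4 JAK genes the share of Jak1 per kilobase was 60.3% in T/T and 37.0% in WT, and that of Tyk2 was 19.0% in T/T and 45.6% in WT. Jak1 and the gene Raver2 overlap by 4 exonic bases on opposite strands in GENCODE M21; Raver2 was at 1.34 CPM in T/T and 11.8 CPM in WT, the opposite direction to Jak1.

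Stat3 was at 297.7 CPM in T/T (7349 reads) and 201.9 CPM in WT (4821 reads), 1.47-fold higher with a counting interval of 1.42 to 1.53. Its log2 ratio of 0.56 was exceeded by 3694 of the 13512 tested genes, and it was 0.25 after rescaling to the sum of listed genes, 0.32 with a common upper quartile and 0.37 with a common median. Stat3 thus stayed above 0 under the 3 rescalings, and its size depended on them. Of 6 STAT genes Stat3 was the most abundant per kilobase in both libraries, at 65.3% of their sum in T/T and 54.2% in WT, ahead of Stat6 at 22.5% in T/T and 28.5% in WT. Stat4, a STAT gene known from lymphocytes, was at 0.0810 CPM in T/T (2 reads) and 2.51 CPM in WT (60 reads), a ratio of 31.0 in favour of WT with an interval of 8.22 to 261.9. The Stat3 and Stat5a loci overlap by 72 bases in mm9 with opposite strands, and the strand setting of the counting is not given in the sources used here, so reads of the overlap cannot be assigned; Stat5a was far lower, at 8.18 CPM in T/T and 7.91 CPM in WT.

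Socs3, the feedback inhibitor whose window with a STAT motif is shown above, was at 329.3 CPM in T/T (8130 reads) and 195.9 CPM in WT (4679 reads), 1.68-fold higher (interval 1.62 to 1.74). It followed Stat3 closely: its ratio was 1.14 times that of Stat3 (interval 1.08 to 1.20). Per kilobase, Socs3 was 3.65 times the level of Stat3 in T/T and 3.20 times in WT. It was by far the most abundant gene of the SOCS family, at 80.3% of the summed level per kilobase in T/T and 73.2% in WT. The family as a whole, Cish included, was 1.53-fold higher in T/T, and 1.24-fold after rescaling to the sum of listed genes.

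Pim1 and Pim3, which encode serine/threonine kinases that promote survival and growth, moved against Stat3 and Socs3. Pim1 was at 18.2 CPM in T/T (450 reads) and 69.3 CPM in WT (1654 reads), 3.80-fold lower (interval 3.42 to 4.23). Pim3 was at 71.8 CPM in T/T (1772 reads) and 183.7 CPM in WT (4388 reads), 2.56-fold lower (interval 2.42 to 2.71). The ratio of Stat3 was 5.60 times that of Pim1 (interval 5.02 to 6.26) and 3.77 times that of Pim3 (interval 3.53 to 4.03), whatever the scaling. Pim2, the third gene of the family and listed here among the other STAT3 targets, was also lower, at 18.9 CPM in T/T and 49.2 CPM in WT (2.60-fold, interval 2.34 to 2.91). The 3 PIM genes summed per kilobase were 2.73-fold lower in T/T, with Pim3 the largest part at 70.8% in T/T and 66.5% in WT. Pim1 overlaps the antisense gene Gm26885 by 488 exonic bases in GENCODE M21, and reads of the 2 strands cannot be told apart here.

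**Figure D3:**
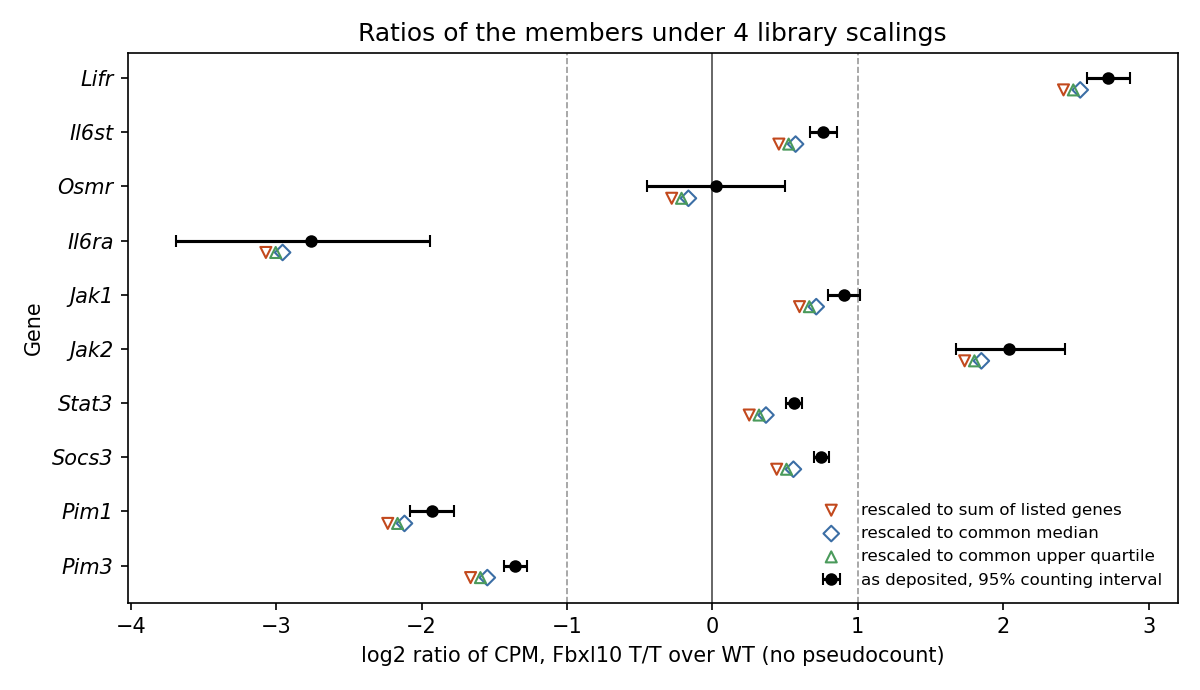
Log2 ratio of CPM without a pseudocount, T/T over WT, for each member (horizontal axis), as deposited with its 95% counting interval (filled circles) and after 3 rescalings of the libraries (open symbols); dashed lines mark 2-fold. Every rescaling moves all genes to the left by the same amount, which turns the direction of Osmr and of no other member.

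Ordered by level per kilobase, Socs3 led in T/T at 113.9 CPM per kilobase, followed by Stat3 (31.2) and Pim3 (29.6), whose counting intervals overlapped, then Jak1 (11.4) and Lifr (11.1), which also overlapped, Il6st (8.86), Pim1 (5.42), Jak2 (2.54), Osmr (0.264) and Il6ra (0.0656). In WT Pim3 led at 75.7 CPM per kilobase, ahead of Socs3 (67.8), then Stat3 (21.2) and Pim1 (20.6), which overlapped, Jak1 (6.10), Il6st (5.22), Lifr (1.68), Jak2 (0.616) and Il6ra (0.446), which overlapped, and Osmr (0.259). No other neighbours in either order overlapped in their exact Poisson 95% intervals. Pim3 and Socs3 thus changed order at the top, and Lifr stood level with Jak1 in T/T but below both Jak1 and Il6st in WT. The place of Lifr in each order depends on its GENCODE M21 exon length, and the intervals do not cover that uncertainty.

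Of 78 other genes of the pathway, grouped in 7 lists by role, 72 were measured. The lists were set with earlier results of these data known and some genes were removed afterwards. Counts per list therefore describe these genes and do not test the lists against all genes. At least 2-fold higher were 5 and at least 2-fold lower 14, beside 14.8% and 20.6% of all tested genes; the median log2 ratio was -0.12. The lists differed in direction, with the smallest ratios among receptors, STAT3 targets and Stat4 and the largest at the inhibitor gene Cish.

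**Figure D4:**
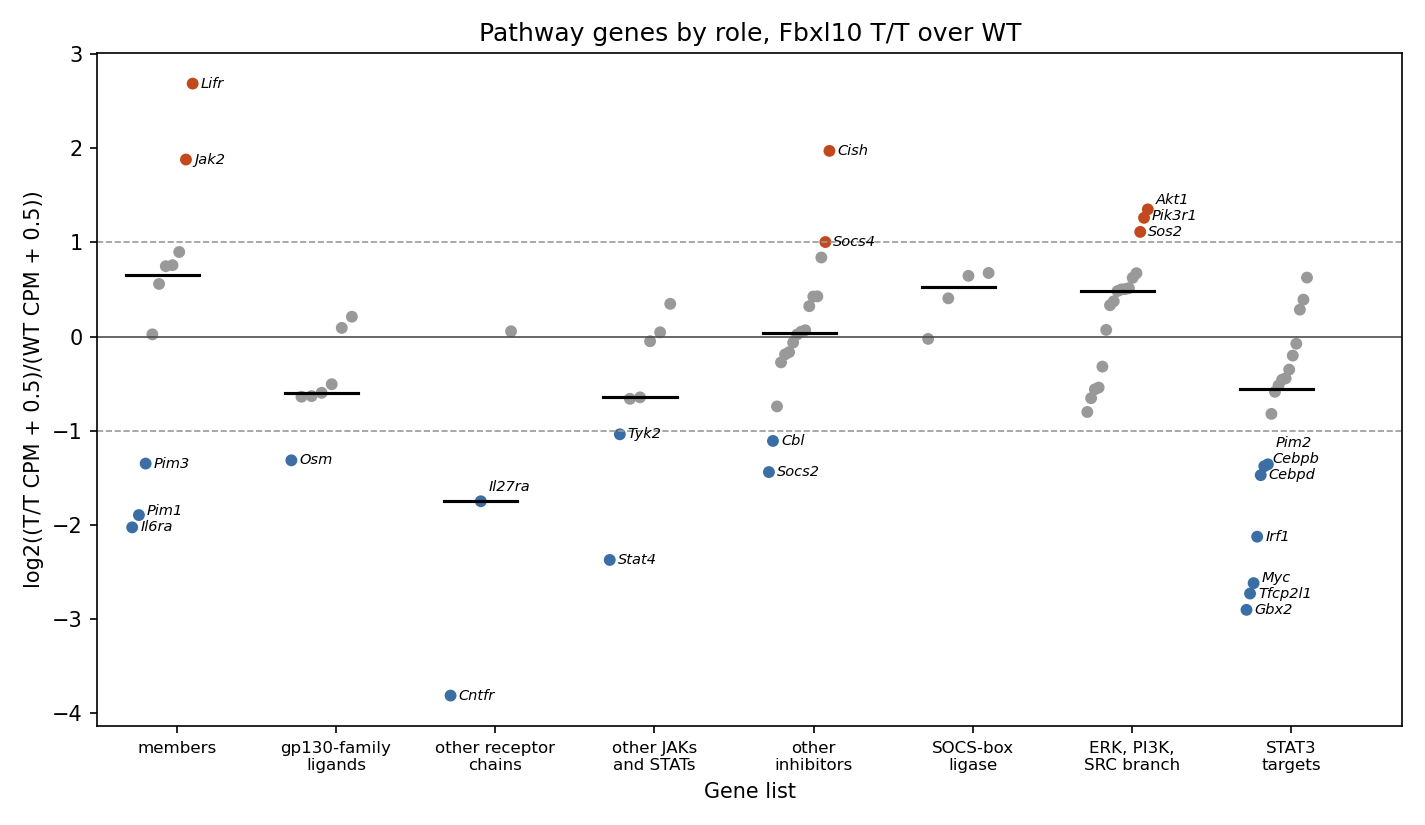
Log2 ratio on the (CPM + 0.5) scale, T/T over WT (vertical axis), of the 10 members and the 72 measured genes of 7 lists (horizontal axis), 1 point per gene; genes past 2-fold (dashed lines) are named, red above and blue below, and the black bar is the list median. The STAT3 targets hold 7 named genes below the lower line and none above the upper one.

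Ligand genes of the gp130 family were measured for 7 of 11, with a median log2 ratio of -0.60, and none was 2-fold higher and 1 lower, against the same 14.8% and 20.6%; Ebi3, Il27, Cntf and Ctf2 were not among the listed genes. Lif itself was at 27.5 CPM in T/T (679 reads) and 42.9 CPM in WT (1025 reads), 1.56-fold lower (interval 1.42 to 1.72). Osm, the gene of oncostatin M, was at 0.122 CPM in T/T (3 reads) and 1.05 CPM in WT (25 reads), 8.61-fold lower with an interval of 2.63 to 44.6. The LIF in the medium came from other cells, so the RNA level of Lif does not give the dose that the cultures received. Fibroblasts also express Lif. Their summed markers were 1.56-fold lower in T/T, but much of that difference was Fbln2, at 237.3 CPM in T/T and 545.6 CPM in WT. Of the 15 markers 12 had a log2 ratio below 0 and 3, Col1a1, Postn and Lox, above it; the part of remaining feeder cells in the level of Lif was not tested.

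Of 16 other inhibitors of cytokine signalling, 2 were at least 2-fold higher and 2 lower, beside 14.8% higher and 20.6% lower among all tested genes. Their median log2 ratio was 0.04. Cish, a SOCS family gene known as a target of STAT5, was at 45.5 CPM in T/T and 11.2 CPM in WT, 4.06-fold higher (interval 3.55 to 4.65). Socs4 was at 23.9 CPM in T/T and 11.6 CPM in WT, just past the threshold at 2.05-fold higher. Its lowest log2 ratio under the other pseudocounts and the rescalings was 0.71, short of 2-fold. Socs2, another feedback gene of cytokine receptors, was at 19.6 CPM in T/T and 54.1 CPM in WT (2.76-fold lower, interval 2.48 to 3.07), and the ubiquitin ligase gene Cbl was at 9.84 CPM in T/T and 21.8 CPM in WT (2.22-fold lower). None of the 4 subunit genes of the SOCS-box ubiquitin ligase, with a median log2 ratio of 0.53, passed 2-fold: Tceb1 was at 81.6 CPM in T/T and 50.9 CPM in WT, Cul5 at 23.9 CPM in T/T and 15.1 CPM in WT, Tceb2 at 198.7 CPM in T/T and 149.8 CPM in WT, and Rnf7 at 102.9 CPM in T/T and 104.7 CPM in WT.

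In the branch that links the LIF receptor to ERK, PI3K and SRC kinases, 3 of 17 genes were at least 2-fold higher and none lower, beside 14.8% higher and 20.6% lower among all tested genes; the median log2 ratio was 0.48. Akt1, the kinase gene downstream of PI3K, was at 426.7 CPM in T/T and 166.9 CPM in WT (2.56-fold higher, interval 2.47 to 2.65), and Pik3r1, which encodes a regulatory subunit of PI3K, was at 43.0 CPM in T/T and 17.6 CPM in WT (2.44-fold higher). Sos2, a RAS exchange factor gene, was at 14.7 CPM in T/T and 6.53 CPM in WT. After rescaling to the sum of listed genes, Pik3r1 and Sos2 were under 2-fold, at log2 ratios of 0.96 and 0.82, and Akt1 alone of this list stayed past it, at 1.05. Under that rescaling the number of genes past 2-fold on the higher side over all 7 lists was 2 in place of 5.

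Of 19 other genes known as STAT3 targets, 18 were measured; none was 2-fold higher, 7 were lower and the median log2 ratio was -0.55, beside 14.8% higher and 20.6% lower among all tested genes. The smallest ratios were those of Gbx2, Tfcp2l1 and Myc, transcription factor genes that support ES cell self-renewal. Gbx2 was at 4.09 CPM in T/T and 33.9 CPM in WT (8.28-fold lower, interval 6.73 to 10.3). Tfcp2l1 was at 49.7 CPM in T/T and 333.1 CPM in WT (6.70-fold lower, interval 6.31 to 7.12). Myc was at 11.5 CPM in T/T and 73.6 CPM in WT (6.37-fold lower, interval 5.62 to 7.25). By contrast Klf4, picked after its value was seen as the target most often named in ES cells, was at 513.7 CPM in T/T and 591.1 CPM in WT, 1.15-fold lower. Of the 18 measured, 15 had a log2 ratio below 0 and 3 above it. The 3 were Junb (1.55-fold higher, interval 1.48 to 1.62), Klf5 (1.31-fold) and Bcl3 (1.22-fold), whose direction turned on rescaling. Targets of STAT3 thus covered a range, with Socs3 and Junb higher and Klf4 near its WT level in the deposited scaling. Under the other pseudocounts and the rescalings the lowest log2 ratio was -0.51 for Klf4, 0.32 for Junb and 0.09 for Klf5. The PIM genes, Myc, Tfcp2l1 and Gbx2 were lower, and so were Irf1 (4.75-fold), Cebpd (2.95-fold) and Cebpb (2.67-fold). In the same library 7 of 9 ES cell markers were lower, and a link between the targets and these markers was not tested.

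Genes whose pattern over the 2 libraries was most like that of a member were those with the nearest log2 ratio among genes of like level, within 0.5 in mean log2. With 2 libraries such likeness is a single number, shared by many genes. Nearest to Lifr were Dkkl1, at 122.9 CPM in T/T and 18.7 CPM in WT, 2310016C08Rik and Camk2n1, all within 0.025 of its log2 ratio, out of 2127 genes of like level. Nearest to Stat3 were Rab5c, Mapre1 and Srp68, out of 719 genes, and nearest to Socs3 were 4921506J03Rik, Btg2 and Arcn1, out of 698.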

How the data were processed

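Per the submitters' processing notes, edgeR, HTSeq 0.5.3p9 and TopHat 1.4.1 were used with build mm9; the job of each tool, the annotation and the strandedness of counting were not given in the sources used here. In the deposited table stand a normalised signal per gene and library, called CPM here, and the authors' log2 ratio of WT over T/T. Every value (100%) came out as a whole number of reads, within 0.01, once divided by a step of 0.0405 CPM in T/T or 0.0419 CPM in WT, and a limit of 3 reads is 0.122 CPM in T/T and 0.126 CPM in WT. Gene identifiers repeated over 11086 rows were used once. Genes that reached 1 CPM in either library were counted past 2-fold on the log2(CPM + 0.5) scale; the pseudocount shrinks ratios of low genes. An exact binomial test of the reads with Benjamini-Hochberg adjustment at 0.05, which compares the 2 libraries and not the genotypes, called 5792 genes higher and 5580 lower. Folds are ratios of CPM without a pseudocount. The authors' deposited table has -2.72 for Lifr and 1.93 for Pim1, as log2 of WT over T/T. Levels per kilobase used merged GENCODE M21 exons, which may differ from the authors' annotation. Of 125 genes in the lists, 118 were measured, 3 of them matched by a GENCODE symbol. Named in each list were up to 3 genes at either end past 2-fold, and all of lists with 4 or fewer. Of the STAT3 targets all genes past 2-fold were named. The members and lists were chosen with earlier results of these data known; some genes of the lists were removed afterwards and are not reported here. Alternatives were other pseudocounts, minimums, fold thresholds, 3 rescalings and, for each member, the authors' deposited ratio. Steps were tested on simulated reads. Scripts ran in Python 3.11.15 (scipy 1.17.1, numpy 2.4.6, pandas 2.3.3), with figures by matplotlib 3.10.9.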

Additional observations from a re-analysis of the deposited data

How the results depend on the processing

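No paired analysis was possible because each genotype has 1 library, so none could be left out either. The counts of 2 higher and 3 lower members held under both other pseudocounts, all 3 rescalings, no minimum and the size rule joined with the binomial test; with a minimum of 5 CPM, Il6ra dropped out and 2 lower members were left. At a 1.5-fold threshold 5 members were higher, and at 4-fold 1 was higher and 1 lower. The other pathway genes 2-fold higher numbered 2 after rescaling to the sum of listed genes and 3 with either a common upper quartile or a common median, against 5; at 1.5-fold 11 were higher and 24 lower, and at 4-fold 0 and 6. Over the whole table, 1737 genes were lower when a minimum of 5 CPM left fewer genes to count, and at 4-fold 519 were higher and 1229 lower, at 1.5-fold 3582 higher. Osmr reversed, to a log2 ratio of -0.24 after rescaling to the sum of listed genes, -0.14 with a common median and -0.18 with a common upper quartile. The other 9 members kept their direction under both pseudocounts, the 3 rescalings and in the authors' deposited table, which gives their own ratios; the range was 2.39 to 2.72 for Lifr and 0.25 to 0.56 for Stat3. At 14 and 79 reads in T/T, Il6ra and Osmr are limited by depth.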

Other observations

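Several genes of the pathway lie side by side in the table's mm9 coordinates and had different ratios. On chromosome 11, Stat5b lies 8678 bases from Stat5a, which overlaps Stat3 by 72 bases, and the T/T over WT ratios of Stat5b, Stat5a and Stat3 were 0.627, 1.03 and 1.47. Also on chromosome 11, Osm and Lif lie 16541 bases apart and were at 0.122 and 27.5 CPM in T/T, against 1.05 and 42.9 CPM in WT. On chromosome 15, Osmr and Lifr lie 280076 bases apart, with ratios of 1.02 and 6.60.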
